A study of Mus musculus with 18 samples.

Results

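Basophils and mast cells are rare granulocytes that bind IgE on their surface, store histamine and proteases in granules, and release them when the bound IgE meets its antigen. Both arise from bone marrow progenitors under the transcription factor GATA2, basophils with IL-3 and mast cells with the KIT receptor. Cultures of bone marrow in GM-CSF, from which dendritic cells (DCs) are grown, can hold such cells beside the DCs. The transcripts described here belong to 10 genes of basophils and mast cells among the 29875 genes of the deposited count table. They were chosen by name for what the genes are known to do, to ask whether minor cells of the culture differed between collagen gels and suspension. Earlier results of these data were known when the list was chosen. Of the 10 members, 9 passed the filter on low counts that left 13844 genes, and Il4 did not.

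DCs were grown in GM-CSF from the marrow of C57Bl6/J wildtype mice aged 8 to 12 weeks and matured with 200 ng/ml LPS for 24 hours. They were then placed in chambers with a CCL19 source in collagen at 1.7, 2.6, 3.5, or 4.4 mg/ml, or in the same chambers without collagen (suspension), and RNA was taken 5 hours after the gradient was set up. Each of the 6 groups, 4 with collagen and 2 in suspension, had 3 replicates, which makes 18 libraries with 13062944 to 28059839 counts. The suspension groups are named here by their titles, plus CCL19 and without CCL19, because their titles and library names contradict each other on CCL19, so no direction for CCL19 is read from them. In their names, libraries of the same replicate number share a date and a code. Replicates 1 and 3 share the first part of this code, and replicate 2 has another. What the code stands for is not given in the labels. Each library is a whole culture with no sort, so fewer cells of a type and less RNA per cell cannot be told apart. Among 153 comparisons of 2 libraries, 0 found the same values throughout.

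The promoters of 7 members are shown because these 7 were lower in all 4 gels than in both suspension libraries of replicate 3, as described further on. The motif of the GATA factors is marked in them because GATA2 is itself a member. The sequences are the 250 bases before each RefSeq start of these genes (GRCm38.p6), printed 5′ to 3′ on the strand of the gene. Capitals mark the GATA motif on either strand, searched as A or T, then GATA, then A or G. On the minus strand lie Mcpt8 (chr14:56085198-56085447), Cpa3 (chr3:20242182-20242431), Ms4a2 (chr19:11623720-11623969), and Fcer1a (chr1:173227230-173227479). On the plus strand lie Gata2, which has 2 starts (chr6:88193641-88193890 and chr6:88198414-88198663), Prss34 (chr17:25298144-25298393), and Cd200r3 (chr16:44943428-44943677).
Mcpt8: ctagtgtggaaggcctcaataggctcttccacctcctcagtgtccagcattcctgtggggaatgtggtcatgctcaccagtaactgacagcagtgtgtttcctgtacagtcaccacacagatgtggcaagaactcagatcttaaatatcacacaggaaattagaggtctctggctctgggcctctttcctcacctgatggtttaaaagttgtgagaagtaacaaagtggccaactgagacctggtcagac
Cpa3: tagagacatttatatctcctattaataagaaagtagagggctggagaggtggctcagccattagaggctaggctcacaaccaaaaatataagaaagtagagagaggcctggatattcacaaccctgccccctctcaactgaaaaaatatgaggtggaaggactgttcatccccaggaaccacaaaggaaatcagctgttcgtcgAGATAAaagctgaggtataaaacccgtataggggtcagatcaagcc
Ms4a2: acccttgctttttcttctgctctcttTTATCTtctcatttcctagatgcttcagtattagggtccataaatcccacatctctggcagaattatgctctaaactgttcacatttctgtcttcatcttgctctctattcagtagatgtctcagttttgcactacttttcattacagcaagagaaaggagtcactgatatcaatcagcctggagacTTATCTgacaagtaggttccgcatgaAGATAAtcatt
Fcer1a: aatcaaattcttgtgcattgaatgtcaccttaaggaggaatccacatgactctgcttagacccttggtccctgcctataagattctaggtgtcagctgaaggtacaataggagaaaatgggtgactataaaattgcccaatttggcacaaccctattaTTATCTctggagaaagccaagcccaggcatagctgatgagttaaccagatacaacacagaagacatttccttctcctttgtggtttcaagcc
Gata2 start 1: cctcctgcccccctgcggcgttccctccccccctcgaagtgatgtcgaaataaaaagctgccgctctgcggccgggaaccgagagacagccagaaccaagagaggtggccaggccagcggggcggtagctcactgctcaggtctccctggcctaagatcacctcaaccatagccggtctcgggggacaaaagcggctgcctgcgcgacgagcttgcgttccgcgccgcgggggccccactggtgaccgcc
Gata2 start 2: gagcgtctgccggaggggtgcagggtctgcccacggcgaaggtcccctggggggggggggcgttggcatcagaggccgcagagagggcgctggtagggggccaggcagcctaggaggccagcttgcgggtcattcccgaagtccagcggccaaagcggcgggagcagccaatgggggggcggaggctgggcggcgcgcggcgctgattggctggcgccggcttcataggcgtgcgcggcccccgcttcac
Prss34: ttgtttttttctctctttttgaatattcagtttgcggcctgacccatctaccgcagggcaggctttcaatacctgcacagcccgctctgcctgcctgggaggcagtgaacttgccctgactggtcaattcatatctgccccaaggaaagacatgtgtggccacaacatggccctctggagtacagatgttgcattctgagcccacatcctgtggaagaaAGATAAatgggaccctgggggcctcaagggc
Cd200r3: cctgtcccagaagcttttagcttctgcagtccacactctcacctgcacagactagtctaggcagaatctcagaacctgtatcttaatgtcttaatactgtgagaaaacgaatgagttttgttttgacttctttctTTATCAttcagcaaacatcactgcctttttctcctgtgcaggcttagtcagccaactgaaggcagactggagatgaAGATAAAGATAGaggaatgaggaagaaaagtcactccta

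Of these 7 genes, Mcpt8 and both starts of Gata2 held no motif in this window, Cpa3, Fcer1a, and Prss34 held 1 each, and Ms4a2 and Cd200r3 held 3 each. The motif nearest to the start began at −46 in Cpa3, −11 in Ms4a2, −92 in Fcer1a, −31 in Prss34, and −33 in Cd200r3. Among the other members, Hdc, Il3ra, and 1 of the 2 starts of Il4 held 1 each. Counted by window, 8 of the 12 windows of the 10 members (66.7%) and 26.5% of 32851 windows of the annotation held at least 1 motif. A match of letters is a description of the window and does not show binding.

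Levels differed widely among the members. In counts scaled to library size (CPM) per kilobase of exon, which corrects for length, the mean over the 6 suspension libraries was 47.2 ± 32.6 (SD) for Prss34, a basophil serine protease. It was 29.6 ± 10.9 for Il3ra, the alpha chain of the IL-3 receptor. Mcpt8, a granule protease that marks mouse basophils, stood at 23.1 ± 17.3, and Cpa3, the carboxypeptidase of mast cell and basophil granules, at 15.9 ± 13.5. Hdc, the enzyme that makes histamine, followed with 13.98 ± 5.47. These 5 genes overlapped with their neighbors in that order by 1 SD. Gata2 had a lower mean, 2.62 ± 1.09 CPM per kb, which still overlapped with Cpa3 by 1 SD. In suspension titled plus and without CCL19 of replicate 1, Cpa3 was the lower gene. It was at 0.269 and 0.535 CPM per kb there, against 3.49 and 1.92 for Gata2. The chains of the IgE receptor were low, with 2.07 ± 2.18 for Fcer1a, the alpha chain that binds IgE, and 0.589 ± 0.462 for Ms4a2, the beta chain. Cd200r3, an activating receptor on basophils and mast cells, was at 0.725 ± 0.475, and Il4, the cytokine that basophils release to drive type 2 responses, at 0.325 ± 0.209. In the 12 collagen libraries, on the same scale, Il3ra led with 33.1 ± 12.1, before Prss34 with 31.5 ± 29.1, Hdc with 23.6 ± 7.10, and Mcpt8 with 21.1 ± 25.5, and these again overlapped by 1 SD.

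**Figure D1:**
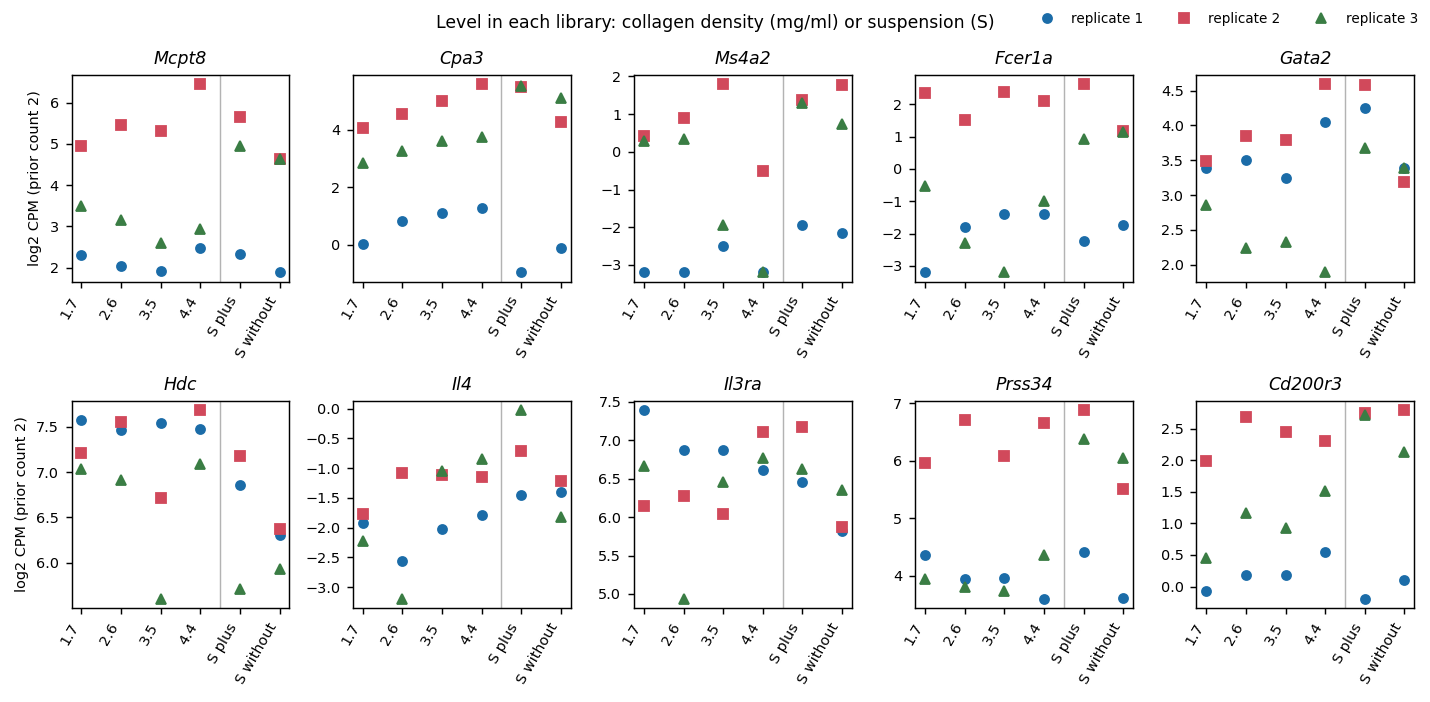
Level of each member in each library as log2 CPM with a prior count of 2 (y axis), by collagen density in mg/ml or suspension group (x axis, S for suspension by title). Symbols mark the replicate, and the vertical line parts collagen from suspension. For Mcpt8 and Cpa3 the replicates form 3 separate levels in the gels, with replicate 1 low and replicate 2 high, whereas replicate 1 is not low for Hdc and Il3ra.

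Most members differed between replicates. In the fit with the replicate number as a block, a difference between replicates was called at a false discovery rate (FDR) of 0.1 in 8 of the 9 tested members, against 48.3% of all genes tested. Il3ra was the exception (edgeR, adjusted p = 0.515). Mcpt8 ranged from 3.59 to 5.46 CPM in the 6 libraries of replicate 1 with a median of 4.44, from 24.6 to 87.5 CPM in replicate 2 with a median of 41.6, and from 5.96 to 30.7 CPM in replicate 3. Every library of replicate 1 lay under every library of the others for this gene (edgeR, adjusted p for the replicates = 8.13e-06).

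Cpa3 had the same order. It ranged from 0.409 to 2.30 CPM in replicate 1, from 16.7 to 48.1 CPM in replicate 2, and from 7.09 to 45.3 CPM in replicate 3, again with no overlap of replicate 1 with the others (adjusted p = 7.86e-06). Prss34 ranged from 12.0 to 21.2 CPM in replicate 1, from 45.5 to 118 CPM in replicate 2, and from 13.2 to 83.2 CPM in replicate 3 (adjusted p = 2.46e-04). Here replicates 1 and 3 overlapped.

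The IgE receptor chains were at or near the limit of counting in replicate 1. Ms4a2 had 0 to 3 counts in the 6 libraries of replicate 1, where 3 counts correspond to 0.107 to 0.23 CPM over the 18 libraries, and reached 3.37 CPM in replicate 2 and 2.32 CPM in replicate 3. It was at 0 in 4 libraries, those of 1.7, 2.6, and 4.4 mg/ml in replicate 1 and of 4.4 mg/ml in replicate 3. Fcer1a had 0 to 6 counts in replicate 1, 2.14 to 6.08 CPM in replicate 2, and 0 to 2.09 CPM in replicate 3. Cd200r3 ranged from 0.767 to 1.35 CPM in replicate 1, from 3.85 to 6.83 CPM in replicate 2, and from 1.26 to 6.51 CPM in replicate 3. So for the basophil protease Mcpt8, for Cpa3, for Fcer1a, and for Cd200r3 the highest library was in replicate 2 or 3, and for none of them in replicate 1. These ranges run from the lowest to the highest library of a replicate, and the floor of 3 counts covers counting error only.

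Correlations across libraries are given as descriptions, since the libraries share replicates. Over the 18 libraries, on the log2 CPM scale, Mcpt8 correlated with Prss34 (r = 0.937), Fcer1a (r = 0.914), Cd200r3 (r = 0.911), Cpa3 (r = 0.877), and Ms4a2 (r = 0.811). After subtraction of each replicate's mean, these values were 0.861, 0.698, 0.570, 0.665, and 0.362. Hdc was near 0 with Mcpt8 in both (r = −0.0178 and 0.00911), and Il3ra was at 0.00942 over the libraries and at 0.378 within replicates. Gata2 correlated with Mcpt8 at 0.442, and at 0.886 within replicates. With Prss34, Fcer1a, Cd200r3, Cpa3, and Ms4a2, Gata2 correlated at 0.551, 0.493, 0.219, 0.0586, and 0.216. Within replicates these values were 0.739, 0.599, 0.409, 0.514, and 0.403. With Hdc, Gata2 was at 0.312, and at −0.115 within replicates. A part of GATA2 in the levels of the members was not tested.

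Outside the lists of basophil and mast cell genes, the 8 genes whose levels over the 18 libraries were most like the mean z-score of the 9 members were Akr1c18 (r = 0.924), Chil3 (0.910), Itgb2l (0.889), Cd177 (0.885), Maob (0.876), Ltb (0.874), Cdc45 (0.869), and 4930438A08Rik (0.863). All 8 had their lowest mean in replicate 1 and their highest in replicate 2. They were picked for likeness to members that mostly differed between replicates, so this shared order can follow from the choice. Chil3, a secreted chitinase-like protein of myeloid cells, averaged 274 CPM in replicate 1, 812 CPM in replicate 2, and 368 CPM in replicate 3. Cd177, a surface protein of neutrophils, averaged 36.6, 167, and 78.3 CPM in the same order. None of the 8 was called between collagen and suspension without the block in edgeR, and 2 were called lower with it, Itgb2l (adjusted p = 0.0361) and Maob (adjusted p = 0.0786).

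The main comparison set the 12 collagen libraries against the 6 suspension libraries. Of the 9 members, 1 was called higher and none lower at an FDR of 0.1 in edgeR, against 20.2% of all genes called in either direction (7.78% higher and 12.4% lower). With the replicate number as a block, 1 was called higher and 3 lower, 4 of 9 against 34.8% of all genes (15.6% higher and 19.3% lower). DESeq2 called 1 member without and 4 with the block. The median log2 change of the members was −0.38, and −0.56 with the block, while that of all genes was 0.0027 and 0.0080. In both fits 7 of the 9 members were below 0, compared with 49.8% of all genes without the block.

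Hdc was the member called higher. At 1.7 mg/ml it was at 190, 148, and 131 CPM in replicates 1, 2, and 3. At 2.6 mg/ml it was at 176, 188, and 121 CPM, at 3.5 mg/ml at 186, 105, and 48.5 CPM, and at 4.4 mg/ml at 178, 205, and 136 CPM. In suspension titled plus CCL19 it was at 116, 145, and 52.3 CPM, and in suspension titled without CCL19 at 79.2, 82.8, and 60.8 CPM. The groups overlapped. The highest suspension library, at 145 CPM, stood above 5 of the 12 gels, and the library of 3.5 mg/ml in replicate 3 was the lowest of all 18.

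The mean of Hdc was 151 ± 45.4 CPM (SD, n = 12) in collagen and 89.3 ± 34.95 CPM (SD, n = 6) in suspension. The log2 change was 0.76 (SE 0.26, edgeR, adjusted p = 0.0664). An exact two-sided permutation test of its log2 CPM, which did not keep libraries within their replicate, gave p = 0.0166. With the block the change was 0.77 and the adjusted p 0.00459. The ratio of means was above 1 within each replicate, 1.87, 1.42, and 1.93 in replicates 1, 2, and 3. Without the block the call was lost when any of 5 libraries was left out, namely 1.7 mg/ml replicate 1, 2.6 mg/ml replicate 2, 3.5 mg/ml replicate 1, and replicate 3 of either suspension group. With the block it was kept without any single library. Histidine decarboxylase is also made by other myeloid cells, so its level is not specific to basophils and mast cells.

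**Figure D2:**
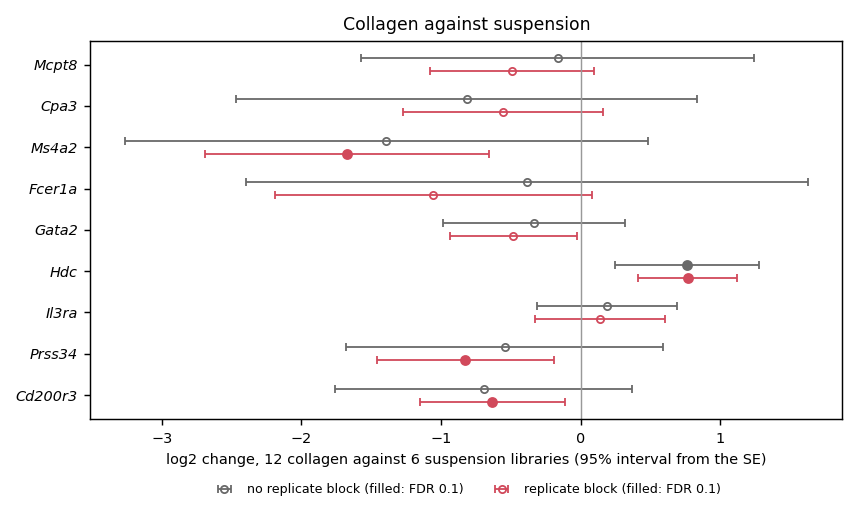
Log2 change of the 9 tested members in 12 collagen against 6 suspension libraries (x axis) without and with the replicate block, with bars for the 95% interval from the SE. Filled points passed an FDR of 0.1: Hdc in both fits (0.76 and 0.77), and Ms4a2, Prss34, and Cd200r3 with the block only.

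The granule proteases were not called without the block. Mcpt8 averaged 21.1 ± 25.4 CPM in collagen and 23.1 ± 17.2 CPM in suspension, with a log2 change of −0.16 (SE 0.72, adjusted p = 0.912). For Cpa3 the means were 14.1 ± 14.3 and 24.1 ± 20.5 CPM, with a log2 change of −0.82 (SE 0.84, adjusted p = 0.578). With the block these genes stayed short of the threshold, at −0.49 (adjusted p = 0.242) and −0.56 (adjusted p = 0.279). Prss34 averaged 38.4 ± 35.5 and 57.6 ± 39.7 CPM, a log2 change of −0.54 (SE 0.58, adjusted p = 0.590) without the block and −0.82 (SE 0.32, adjusted p = 0.0680) with it. The intervals without the block were wide, from −1.57 to 1.25 for Mcpt8, so that changes in either direction remained possible.

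Of the IgE receptor chains, Ms4a2 was called only with the block. Its mean was 0.784 ± 1.02 CPM in collagen and 1.66 ± 1.299 CPM in suspension, and the log2 change was −1.39 (SE 0.96, adjusted p = 0.372) without and −1.68 (SE 0.52, adjusted p = 0.0233) with the block. Fcer1a, at 1.57 ± 2.08 and 2.06 ± 2.17 CPM, changed by −0.38 (SE 1.03, adjusted p = 0.848) and by −1.05 (adjusted p = 0.190) on the log2 scale and passed in neither fit. The call of Ms4a2 with the block was lost without suspension titled plus CCL19 replicate 3, as were those of Prss34 and Cd200r3, and 1 member, Hdc, then remained called. Those of Prss34 and Cd200r3 were also lost without any of the other 5 libraries of replicate 3, and that of Cd200r3 without replicate 2 of 1.7 mg/ml, of 3.5 mg/ml, or of suspension titled without CCL19.

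Of the remaining receptors, Cd200r3 averaged 2.72 ± 1.92 CPM in collagen and 4.34 ± 2.84 CPM in suspension, with a log2 change of −0.69 (SE 0.54, adjusted p = 0.440) without and −0.63 (SE 0.26, adjusted p = 0.0856) with the block. Il3ra was at 98.2 ± 35.9 and 87.7 ± 32.3 CPM, a log2 change of 0.19 (SE 0.26, adjusted p = 0.680). Gata2 was at 10.9 ± 5.80 and 14.2 ± 5.86 CPM, a log2 change of −0.34 (SE 0.33, adjusted p = 0.559), and missed the threshold with the block too (−0.48, adjusted p = 0.135). Il4 had 92 counts in all 18 libraries, at most 21 in any, and was not tested across genes. A two-sided exact permutation test of its log2 CPM, again without regard to replicate, gave p = 0.0913. The means of Il4 were 0.225 ± 0.144 CPM in collagen and 0.398 ± 0.256 CPM in suspension.

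The values within each replicate are given next, as a description. In replicate 3, 7 of the 9 tested members were lower in all 4 gels than in both suspension libraries, as were 17.4% of all genes tested. None was higher in all 4, against 17.8% of all genes. Mcpt8 was at 11.1, 8.87, 5.96, and 7.59 CPM from the lowest to the highest density, and at 30.7 and 24.9 CPM in suspension titled plus and without CCL19. Cpa3 was at 7.09, 9.47, 12.0, and 13.3 CPM in the gels and at 45.3 and 34.5 CPM in suspension. Prss34, the basophil protease, was at 15.2, 13.9, 13.2, and 20.5 CPM against 83.2 and 65.9 CPM. The gels of replicate 3 thus held a fraction of the suspension level of these 3 proteases, with ratios of the means of 0.302, 0.262, and 0.210.

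The other members without overlap in replicate 3 were Fcer1a (ratio 0.138), Ms4a2 (0.310), Cd200r3 (0.367), and Gata2 (0.441). In replicate 2 the same ratios were close to 1 for most, with 1.35 for Mcpt8, 0.946 for Cpa3, 1.03 for Prss34, 1.04 for Fcer1a, and 0.964 for Gata2. Ms4a2 was at 0.599 with overlap, and Cd200r3 at 0.757 without. In that replicate 1 of 9 members, Cd200r3, was lower in all 4 gels, against 10.6% of all genes, and none was higher in all 4, against 8.17%. In replicate 1, 1 of 9 was lower in all 4 gels, against 25.5% of all genes, and 3 were higher in all 4, against 21.8%. The lower member was Ms4a2, with 0 to 1 counts in the gels and 3 in each suspension library, too few for a ratio. The higher members were Hdc, Il3ra (ratio 1.73), and Cpa3. The groups overlapped for Mcpt8 (1.05), Prss34 (0.948), Gata2 (0.813), Cd200r3 (1.23), and Fcer1a (1.23, from 0 to 6 counts). Cpa3 had a ratio of 2.85 there, at 12 to 51 counts in the gels and 8 and 21 counts in suspension, and after scaling for library size.

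The difference between replicates was tested as an interaction of collagen and replicate in edgeR, a test added after the data were seen. None of the 9 members, and 0% of all genes, was called at an FDR of 0.1, while 998 of 13844 genes had an unadjusted p below 0.05. Of the members, 5 had such a p: Cpa3 (unadjusted p = 2.58e-04, adjusted p = 0.383), Prss34 (unadjusted p = 2.63e-04, adjusted p = 0.383), Mcpt8 (unadjusted p = 0.00165, adjusted p = 0.498), Cd200r3 (unadjusted p = 0.0161), and Fcer1a (unadjusted p = 0.0197). The collagen effect was therefore not shown to differ between replicates.

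**Figure D3:**
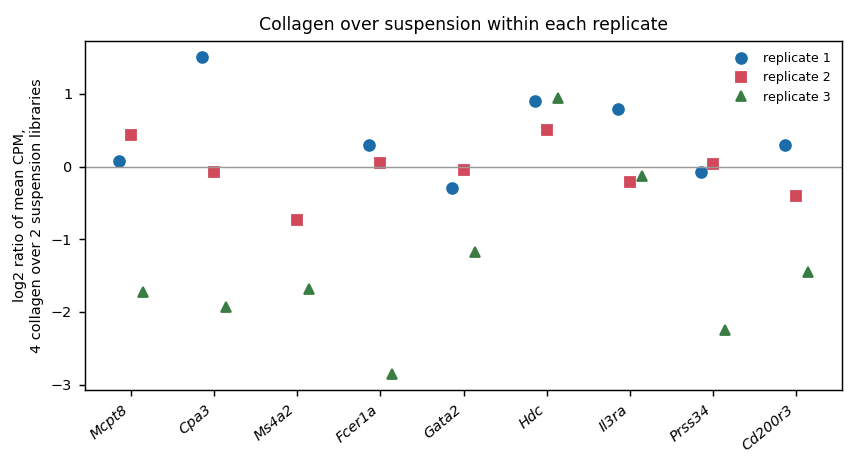
Log2 ratio of mean CPM in the 4 collagen libraries over the 2 suspension libraries of the same replicate (y axis) for 9 members. Il4 and replicate 1 of Ms4a2 are left out for low counts. In replicate 3 (triangles) 7 members lie below −1, Hdc lies above 0 in every replicate, and Cpa3 is above 0 in replicate 1.

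Collagen density was then asked about, each density against suspension and as a linear trend. At 1.7 mg/ml no member was called (edgeR), against 0.0361% of all genes, and none in DESeq2. An unadjusted p below 0.05 was found in 1 member and in 1113 of 13844 genes. At 2.6 mg/ml none was called against 7.87%, and none in DESeq2. There 1 member and 2801 genes had an unadjusted p below 0.05. At 3.5 mg/ml none was called against 4.9%, and none in DESeq2. No member and 2437 genes had an unadjusted p below 0.05. At 4.4 mg/ml 1 of 9 was called against 14.8% of all genes, Hdc with a log2 change of 0.98 (SE 0.35, adjusted p = 0.0916). This call was lost in 13 of the 18 fits that left out a library, and kept only without 2.6 mg/ml replicate 3, 3.5 mg/ml replicates 1 or 3, or suspension titled plus CCL19 replicates 1 or 2.

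With the replicate block, Hdc was called at 1.7 mg/ml (log2 change 0.87, adjusted p = 0.0804, against 2.91% of all genes), at 2.6 mg/ml (0.90, adjusted p = 0.0189, against 21.6%), and at 4.4 mg/ml (1.01, adjusted p = 0.00555, against 31.9%). At 3.5 mg/ml, where 18.4% of all genes were called, Hdc had a log2 change of 0.28 (adjusted p = 0.494) and no member was called. There 1 member and 3750 of 13844 genes had an unadjusted p below 0.05. The other call with the block was Ms4a2 at 4.4 mg/ml, with a log2 change of −3.60 (SE 0.96, adjusted p = 0.0118). Its counts there were 0, 7, and 0 in replicates 1, 2, and 3, so that this change rests on few counts. The blocked calls at 2.6 and 4.4 mg/ml were kept without any single library. That of Hdc at 1.7 mg/ml was lost in 9 of 18 such fits, without any replicate of 1.7 mg/ml, replicate 2 of 2.6 or 3.5 mg/ml, replicates 1 or 3 of suspension titled plus CCL19, or replicates 1 or 2 of suspension titled without CCL19.

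**Figure D4:**
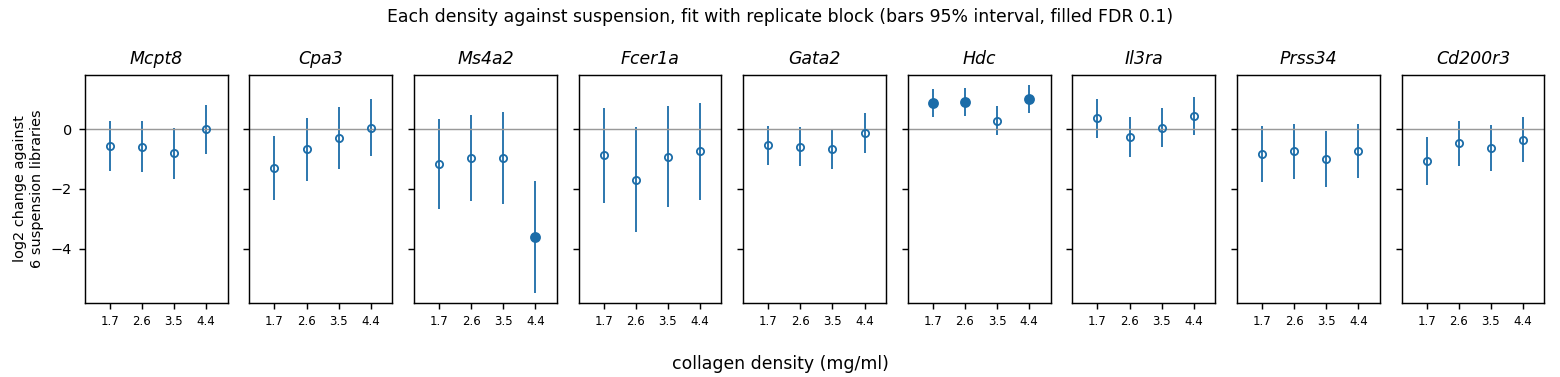
Log2 change of each density against the 6 suspension libraries in the fit with the replicate block (y axis) by collagen density in mg/ml (x axis), 1 panel per tested member, with bars for the 95% interval from the SE and filled points for an FDR of 0.1. Hdc is above 0 at all 4 densities, and Ms4a2 is lowest at 4.4 mg/ml (−3.60).

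No member had a called trend with density among the gels. In edgeR 0 of 9 passed, against 0.00722% of all genes, and DESeq2 called none. No member had an unadjusted p below 0.05 in edgeR, against 997 of 13844 genes. With the block 0 of 9 passed, against 1.45%. An unadjusted p below 0.05 was then found in 2 members and in 1935 of 13844 genes. These 2 were Cpa3, whose log2 CPM had a slope of 0.49 for each mg/ml (SE 0.21, adjusted p = 0.303), and Ms4a2, with a slope of −0.81 (SE 0.36, adjusted p = 0.323). On the CPM scale used here, Cpa3, the granule carboxypeptidase, stood higher at each density than at the one before it within each replicate. In replicate 1 it was at 0.924, 1.68, 2.06, and 2.30 CPM, and in replicate 2 at 16.7, 23.4, 32.2, and 48.1 CPM, from 1.7 to 4.4 mg/ml. Scaled to plain total counts, it went from 11.65 to 11.56 at the last step of replicate 3, so the order there depends on the scaling. The share of all genes with such an order is not given here.

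The suspension groups gave no called member either, against 0% of all genes in edgeR, and none was called by DESeq2 or with the block. No member had an unadjusted p below 0.05 in edgeR without the block, against 855 of 13844 genes. All 9 tested members had a log2 change above 0 in suspension titled plus CCL19 relative to titled without CCL19, from 0.0054 to 0.89, and from 0.12 to 0.76 with the block, whereas 50.2% of all genes were below 0. All 11 neutrophil markers were above 0 too, with a median of 1.30 against 0.73 for the members, so this direction was not particular to the members.

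Neighboring gene groups placed the members. Mast cell genes outside the members gave 0 called higher and 1 called lower of 5 tested. The median log2 change of this list was 0.455, with 2 of 5 below 0. With the block it was 0.428, with 1 below 0, so the list as a whole did not fall. The gene called lower was Kit, the receptor for stem cell factor on mast cells and progenitors. Kit was at 19.5 ± 6.61 CPM in collagen and 40.9 ± 10.9 CPM in suspension (log2 change −1.11, adjusted p = 0.00308). The defining proteases of connective tissue and mucosal mast cells were close to absent. Mcpt1 was at 0 in 16 of 18 libraries, Mcpt2 and Tpsab1 in 17 each, and Cma1 in 11. Tpsb2, a mast cell tryptase, reached 31 counts and was at 0 in all libraries of replicate 3. The mast cell label therefore rests on few transcripts here, whereas Mcpt8 and Prss34, which mark basophils, had at least 54 and 177 counts in every library. Mcpt4, Mcpt9, Mrgprb1, and Mrgprb2 were looked up too but not found by symbol among the deposited counts, so their levels are not known here.

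Basophil-associated genes outside the members gave 1 higher and 2 lower of 14 tested, and 2 and 5 with the block. Gata1, a GATA factor of eosinophils, basophils, mast cells, and erythroid cells, fell from 3.52 ± 2.63 to 0.580 ± 0.573 CPM (log2 change −2.60, adjusted p = 0.0108). Cyp11a1, a steroid-making enzyme, fell from 46.0 ± 38.89 to 12.1 ± 9.88 CPM (log2 change −1.83, adjusted p = 0.0369). Il6, a cytokine that DCs make too, rose from 32.8 ± 19.8 to 103 ± 70.8 CPM (log2 change 1.61, adjusted p = 0.0154). The list's median was −0.39, close to that of the members.

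The transcription factors of the lineage gave 2 higher and 1 lower of 12, and 4 and 1 with the block. Gfi1, a repressor in granulocyte development, rose from 1.81 ± 0.731 to 12.5 ± 6.45 CPM (log2 change 2.71, adjusted p = 0.00321). Its relative Gfi1b fell from 2.83 ± 2.56 to 0.698 ± 0.539 CPM (log2 change −1.87, adjusted p = 0.0563), and Runx1 rose by 0.92 on the log2 scale (adjusted p = 0.0608). The median of the list was 0.29.

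Signalling from the IgE receptor gave 0 higher and 3 lower of 12 tested, and 2 and 4 with the block. These were the phosphatase gene Inpp5d (log2 change −0.97, adjusted p = 0.00160), the phospholipase gene Plcg1 (−0.77, adjusted p = 0.00485), and the adaptor gene Lat2 (−0.85, adjusted p = 0.0156), all of which DCs and other leukocytes express as well. Lipid mediator and histamine receptor genes gave 2 higher and 2 lower of 9, and 2 and 3 with the block, with Pla2g4a (1.13, adjusted p = 0.00927) and Ptgs2 (2.78, adjusted p = 0.0503) among the former and Hrh1 (−1.43, adjusted p = 0.0432) among the latter. Ptgs2 encodes the inducible cyclooxygenase that makes prostaglandins.

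The receptors of the IL-3 family and STAT5 gave 0 higher and 1 lower of 8, and 0 and 2 with the block. Csf2rb2, a beta chain that pairs with Il3ra, fell from 1062 ± 378 to 629.6 ± 150.4 CPM (log2 change −0.78, adjusted p = 0.0181). The family of CD200 and its receptors, to which Cd200r3 belongs, gave 1 higher and 0 lower of 4, and 1 and 1 with the block. The gene that rose was Cd200, the ligand (log2 change 0.67, adjusted p = 0.0604).

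Eosinophil markers had the lowest median of the 14 lists. All 9 of 9 fell in collagen, with and without the block, and the median log2 change was −3.05, against −0.38 for the members. Ccr3, the eotaxin receptor, fell from 5.14 ± 3.09 to 0.4504 ± 0.260 CPM (log2 change −3.51, adjusted p = 5.83e-04), and Ear1 and Ear6, eosinophil ribonucleases whose reads near-identical copies may share, fell by 5.06 and by 3.40 on the log2 scale (adjusted p = 4.79e-04 and 6.68e-04). The summed CPM of the list ranged from 14.8 to 171 in the gels and from 121 to 1385 in suspension. Its part in the changes of the members was not tested.

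Of the neutrophil markers, 3 of 11 fell and none rose, in both fits: Retnlg (log2 change −1.74, adjusted p = 0.0105), Ly6g (−1.27, adjusted p = 0.0245), and Cxcr2 (−1.69, adjusted p = 0.0596). Their summed CPM moved with the replicates, from 642 to 1588 in replicate 1, from 1406 to 9795 in replicate 2, and from 1555 to 4004 in replicate 3. Mcpt8 and Cpa3 had their lowest means in replicate 1 as well, whereas Hdc, Il3ra, and Gata2 had theirs in replicate 3. The part of neutrophils in the members' levels was not tested.

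DC markers were abundant, with a summed CPM of 24283 to 58814 in the gels and of 18166 to 54490 in suspension. Of these, 0 of 10 rose and 1 fell, Flt3 (log2 change −1.12, adjusted p = 0.0446), and 2 rose and 1 fell with the block. Macrophage markers gave 0 called of 7 in edgeR and 4 higher with the block. Markers of T, NK, and B cells gave 0 called of 3 tested and 1 lower with the block, and their summed CPM stayed at or below 13.4 in every library. Erythroid and megakaryocyte markers gave 1 higher of 3, Ppbp (log2 change 1.47, adjusted p = 0.0271), and 2 with the block.

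**Figure D5:**
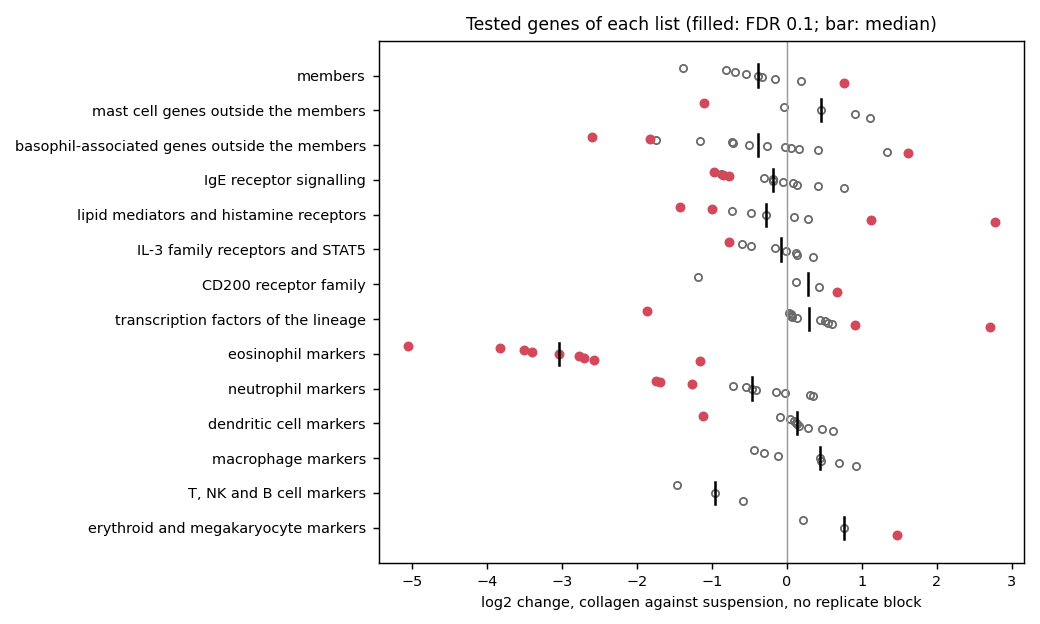
Log2 change in collagen against suspension without the replicate block (x axis) for each tested gene of the members and of 13 other lists (rows). Filled points passed an FDR of 0.1 and bars mark the median of a list. All 9 eosinophil markers lie below −1, whereas the members spread from −1.39 to 0.76 with Hdc as the only filled point.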

How the data were processed

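RNA of 18 libraries was sequenced as 50-base single-end reads of stranded mRNA libraries and aligned by the authors with STAR 2.7.0f to GRCm38. The authors deposited raw counts for each Ensembl gene, and the counting tool is not given in the sources used here. Of 29875 genes, 29850 had a symbol, and positions and exon lengths came from an annotation of GRCm38.

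The deposited counts were analysed in R 4.3.3 with edgeR 4.0.16 (quasi-likelihood test, filterByExpr, TMM scaling, FDR 0.1, 1 fit over all 18 libraries) and DESeq2 1.42.0. CPM used TMM-scaled library sizes and log2 CPM a prior count of 2. SEs were derived from the F statistic. Groups came from the labels. Libraries of the same replicate number share a date and a code in their names, so the number pairs them. Deviations from group means correlated at 0.434 on average over 45 same-numbered pairs (lowest −0.149) and at −0.214 over 90 pairs of other numbers. Biological variation between libraries (BCV) came to 49.0%, or 33.1% in the blocked fit. Exact permutation tests were two-sided and shuffled all 18 libraries freely, so they ignored the pairing by replicate number. The edgeR test of collagen against suspension was checked on simulated counts for recovery of known changes. That check set no limit on false calls. Its replicate differences were smaller than those of Mcpt8 and Cpa3, so it does not cover such genes. Promoters were RefSeq windows (GRCm38.p6), matched by symbol for 10 of 10 members.

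Genes named are the members, up to 3 called genes per list by smallest p, and the 8 genes most like the members. Near-empty mast cell proteases were named after their values were seen. Members and lists were chosen with earlier results of these data known. The labels call the replicates biological and do not say whether these were separate animals, so p-values measure the spread between these libraries.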

Additional observations from a re-analysis of the deposited data

Results flagged for a closer look

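Over the 6 suspension libraries, Fcer1a, the alpha chain of the IgE receptor, had a library far from the others. Suspension titled plus CCL19 replicate 2 held 6.08 CPM from 85 counts. The gap to the next library was 0.659 of the whole range, above the 95% critical value of Dixon's test for 6 samples. The test used CPM, not log2 CPM, and took no account of the replicates. In replicate 2 Fcer1a was also at 5.01, 2.75, 5.13, and 4.18 CPM in the gels, from 1.7 to 4.4 mg/ml. The other suspension library of that replicate was at 2.14 CPM. The other 9 members had no such library among the 10 genes tested, and chance flags about 1 in 20 such groups.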

How the results depend on the processing

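Replicates and low counts set the limits of these results. For collagen against suspension the number of members called was 1, and it was 4 with the replicate block in edgeR or DESeq2, 3 with no filter on low counts (Cpa3, Ms4a2, and Hdc), and 0 with either suspension group as the only control or at an FDR of 0.05. Leaving out replicates or libraries gave 0 to 1. With the replicate block it was 4, 5, and 2 without replicates 1, 2, and 3, and 1 to 5 without a single library. The full edgeR fits called 20.2% of all genes without the block and 34.8% with it. Shares of all genes are given only for these edgeR fits over all 18 libraries. Counts from other fits are therefore not read as particular to the members. For 1.7 mg/ml the count of 0 became 1 with the replicate block, in 9 of its fits without a library 1 as well, and 2 in DESeq2 with the block. For 2.6 mg/ml it became 1 with the block in either tool, and 2, 1, and 0 without replicates 1, 2, and 3. For 3.5 mg/ml it became 1 (Prss34) with the block and without suspension titled without CCL19 replicate 2. For 4.4 mg/ml the count of 1 became 2 with the block in either tool and with no filter, and 0 with either control alone or at an FDR of 0.05. Leaving out replicates or libraries gave 0 to 1 there, and 2, 2, and 3 with the block and without replicates 1, 2, and 3. The full edgeR fits at 4.4 mg/ml called 14.8% of all genes without the block and 31.9% with it. For the suspension groups, 2 members (Gata2 and Prss34) were called with the block and without suspension titled without CCL19 replicate 3. The cause of these changes was not tested, and the reduced fits also had fewer libraries.

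Without replicate 3, Mcpt8 turned to 0.38, Fcer1a to 0.19, and Prss34 to 0.13 on the log2 scale, and with the block to 0.26, 0.19, and 0.077, with Cpa3 at 0.41. Leaving out each replicate gave −1.34 to 0.38 for Mcpt8, −2.29 to 0.19 for Fcer1a, and −1.53 to 0.13 for Prss34. Il3ra ranged from −0.14 to 0.37, and was −0.15 with the block and without replicate 1. At 3.5 mg/ml Hdc ranged from −0.078 to 0.63 (−0.11 with the block and without replicate 1), and Ms4a2 from −3.17 to 0.21. In the comparisons other than collagen against suspension, 78 of 774 values changed sign, and 0 of these were called. Other scalings moved the count of members called in no comparison. For the members, the block changed no call other than those given. Il4 could be fitted across genes only with no filter (log2 change −0.89, SE 0.71, adjusted p = 0.677).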
